A study of Felis catus with 15 samples.

Results

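Transcripts of 10 genes of the lumicrine ROS1 and extracellular signal-regulated kinase (ERK) pathway were followed by RNA-seq in the corpus epididymis of the domestic cat (Felis catus). The genes were chosen by symbol and matched to NCBI gene identifiers in the count table: NELL2 (gene 101081559), ROS1 (101093437), OVCH2 (101087347), ETV1 (101081531), ETV4 (101094892), ETV5 (101101405), DUSP6 (101097255), SPRY2 (101088453), SPRY4 (101081950) and PTPN6 (101087073). All 10 were found among the 38995 genes of the table, and all 10 passed the filter on low counts with which 18038 genes were tested. The corpus is the middle region of the duct in which sperm mature. There were 3 groups of 5 libraries: fresh corpus tissue, corpus explants kept in culture, and corpus explants kept in culture with extracellular vesicles (EVs), membrane-bound particles released by cells, here from the caput, the region upstream. A code in the labels gives fresh libraries D0 and all cultured ones D3, without saying what it stands for, and breed, age and vesicle dose are likewise not stated in the sources used here. The labels do not say whether the 5 replicates are separate animals, so a p-value here reflects only the spread among these libraries.

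As background, the lumicrine pathway is a signal carried by the fluid in the duct. In the mouse, NELL2 is secreted by germ cells of the testis, travels down the lumen and binds ROS1, a receptor tyrosine kinase of the initial segment, the first stretch of the epididymis. Signalling from ROS1 passes through the kinases MEK and ERK, is restrained by the phosphatase PTPN6, and maintains expression of OVCH2, a secreted protease needed for sperm maturation. ETV1, ETV4 and ETV5 are transcription factors of the PEA3 family whose genes are widely used as readouts of ERK activity, and DUSP6, SPRY2 and SPRY4 encode feedback inhibitors that ERK signalling induces. A transcript level does not measure kinase activity, which was not assayed here.

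Total counts ran from 17308832 to 27420218 per library. Levels below are CPM, counts relative to the library size (with TMM, the trimmed-mean scaling of edgeR), and libraries are named by group and replicate number. The labels do not say whether same-numbered libraries come from the same animal, and the pairing of culture with fresh tissue is not settled. Folds between same-numbered libraries are therefore a description only. Culture 3 stood apart: mitochondrially encoded protein genes took 0.179% of its counts against 6.23% to 7.48% in the other 4 cultures. Markers of principal cells, the main absorptive and secretory cells of the duct, were present in fresh tissue, with summed levels of 20354 to 24276 CPM. They summed to 1334 to 3545 CPM in culture and 2281 to 3819 CPM in culture with EVs, and all 14 tested were lower in both. Of 9 basal cell markers, 8 were higher and 1 lower in both cultures (median log2 fold change 2.31 and 2.18), with summed levels of 1059 to 1459 CPM in fresh libraries, 2726 to 7224 in cultured ones and 2411 to 6246 with EVs. Of 10 fibroblast markers, 4 were higher, 1 lower and 5 not called in both, and 6 were higher in culture without culture 3. Their summed levels overlapped, at 613 to 2477, 1398 to 15934 and 1085 to 11530 CPM. Smooth muscle (2 higher and 0 lower of 8), clear cell (3 and 3 of 10) and nerve markers (0 and 2 of 7) were counted in culture against fresh tissue. No marker of these 6 types that the table holds was at 0 counts in any group. The part of any of these types in the changes below was not tested. In whole tissue, fewer cells of a type and less RNA per cell cannot be told apart.

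In cultured explants the ETV factors and feedback inhibitors rose, OVCH2 and PTPN6 fell, and ROS1 and NELL2 did not pass the test. The rises came in libraries in which some markers of several cell types were also higher. Of all tested genes, 28.7% were higher in culture and 27.4% with EVs. In both cultures 8 of 9 basal (1 lower), 5 of 10 endothelial (0 lower) and 4 of 10 fibroblast markers (1 lower) were higher. Smooth muscle, at 2 of 8 higher (0 lower), did not exceed the share of all genes. Clear cell markers had 3 higher and 3 lower of 10 in culture, and 3 and 2 with EVs. Nerve markers had 0 higher and 2 lower of 7 in both. Leukocyte markers had 3 higher and 5 lower of 21 in culture, and 3 and 7 with EVs. All 14 principal cell markers were lower in both. The part of these types in the rises was not tested. The test was edgeR's quasi-likelihood test over all genes, and calls were made at a Benjamini-Hochberg adjusted p under 0.05. In culture against fresh tissue 6 of the 10 genes were higher, 2 lower and 2 not called, where 54.3% of all tested genes were called (28.7% higher and 25.6% lower). In culture with EVs against fresh tissue the counts were also 6 higher, 2 lower and 2 not called, beside 52.9% of all genes called (27.4% higher and 25.5% lower). These comparisons share the 5 fresh libraries. The median log2 fold change of the 10 genes was 1.34 and 1.39, beside 0.04 and 0.01 over all tested genes. The 10 genes were listed with earlier results of these data known, so their counts and medians are a description and not a test. Groups did not overlap for 7 of the 10 genes in culture against fresh tissue, as for 40.5% of all genes, and for 8 with EVs, as for 49.2% of all genes. Without culture 3 the calls in culture against fresh tissue were again 6 higher and 2 lower.

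**Figure D1:**
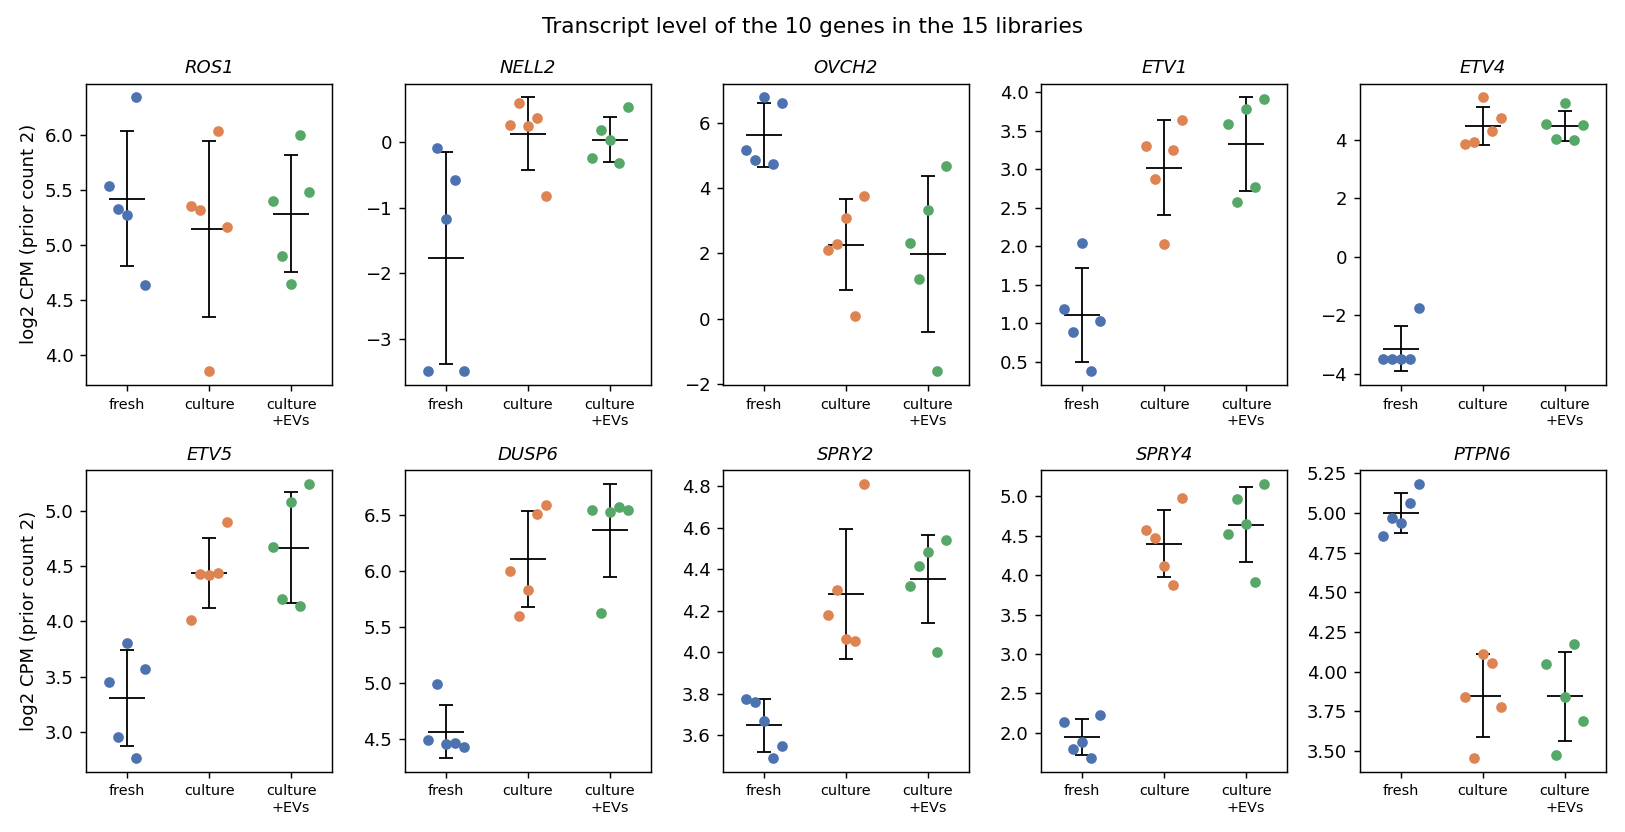
Level of each of the 10 genes in each library, in log2 CPM with a prior count of 2 on axes that differ between panels, for fresh tissue, culture and culture with EVs; bars show the mean and SD of 5 libraries. ETV4, ETV5, DUSP6, SPRY2 and SPRY4 were higher in every cultured library than in every fresh one, OVCH2 and PTPN6 were lower, and ROS1 levels overlapped in all 3 groups.

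NELL2, the ligand, was near the limit of detection. Its level in fresh libraries 1 to 5 was 0, 0.843, 0.352, 0.577 and 0 CPM, from 0, 21, 8, 10 and 0 counts. In culture it was 1.10, 1.42, 1.09, 1.20 and 0.474 CPM, and with EVs 0.749, 1.04, 0.931, 0.708 and 1.35 CPM, from 9 to 31 counts per library. Of 9 sperm and late germ cell markers, 1 was higher and 8 lower in culture, and 0 and 8 with EVs, and AKAP4 and CAPZA3 were at 0 counts in culture. For NELL2, every cultured library was above the fresh library of its own number, but the groups overlapped: culture 5 and culture with EVs 1 and 4 were below fresh 2. Over the groups, 119 counts in culture against 39 in fresh tissue gave a ratio of scaled counts of 2.96 (95% exact binomial interval 2.05 to 4.36), and 110 counts with EVs gave 2.54 (1.75 to 3.76). These intervals cover counting error only. In the edgeR test the log2 fold change was 1.56 ± 0.73 (SE, n = 5 per group; adjusted p = 0.0854) in culture and 1.40 ± 0.73 (adjusted p = 0.121) with EVs, so the difference was not called. The call rests on the method and on fresh 2: DESeq2 gave 1.54 with adjusted p = 0.0456 in culture, and limma-voom 2.76 with adjusted p = 0.00839 in culture and 2.61 with adjusted p = 0.00871 with EVs. Without fresh 2, edgeR gave 2.19 (adjusted p = 0.0337) in culture and 2.04 (adjusted p = 0.0467) with EVs. Over all alternatives the adjusted p ran from 0.00839 to 0.143 for culture and from 0.00871 to 0.216 with EVs.

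ROS1, the receptor, was detected in all 15 libraries and varied more between libraries than between groups. Fresh libraries 1 to 5 had 46.3, 39.9, 38.4, 81.0 and 24.7 CPM. In culture the levels were 40.7, 39.9, 14.3, 65.5 and 35.7 CPM, and with EVs 42.2, 29.7, 24.8, 63.7 and 44.6 CPM. Replicate 4 had the highest ROS1 level in all 3 groups, and the lowest of all was culture 3. Group means were 46.1 ± 21.0 CPM in fresh tissue (SD, n = 5), 39.2 ± 18.2 in culture and 41.0 ± 15.2 with EVs. The groups overlapped, with log2 fold changes of -0.23 ± 0.37 in culture (SE; 95% interval -1.03 to 0.57; edgeR adjusted p = 0.62) and -0.17 ± 0.37 with EVs (-0.97 to 0.63; adjusted p = 0.727). Of same-numbered pairs, ROS1 was higher in culture in 1 of 5 and higher with EVs than in fresh tissue in 1 of 5, replicate 5 in both. All 14 principal cell markers tested were lower in the same libraries, and the difference between ROS1 and those markers was not tested.

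OVCH2, the target gene of the lumicrine signal, fell in both cultures. Fresh libraries 1 to 5 had 35.7, 29.1, 111, 26.7 and 98.2 CPM, culture libraries 4.25, 4.80, 8.46, 0.960 and 13.4 CPM, and libraries with EVs 4.92, 2.21, 9.99, 0.236 and 25.6 CPM. All 10 cultured libraries were below the lowest fresh library. The log2 fold change was -3.24 ± 0.90 in culture, or 9.47-fold lower (SE, n = 5 per group; edgeR adjusted p = 0.0064), and -2.82 ± 0.88 with EVs, or 7.04-fold lower (adjusted p = 0.0137). Without culture with EVs 5, the highest library of its group, the latter was -3.80 (adjusted p = 0.00307).

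The extremes of OVCH2 lay in the same replicates across the groups. Replicate 4 was the lowest in fresh tissue, in culture and with EVs, and replicates 3 and 5 were the highest pair in all 3. The fall between same-numbered libraries of fresh tissue and culture was 8.40-, 6.06-, 13.1-, 27.8- and 7.33-fold for replicates 1 to 5. With EVs the corresponding falls were 7.26-, 13.1-, 11.1-, 113- and 3.84-fold, so replicate 4 fell most in both. Its folds rest on few reads, with 24 counts of OVCH2 in culture 4 and 6 in culture with EVs 4, so their size is uncertain. Replicate 4, the lowest in OVCH2, was the highest in ROS1. Across the 15 libraries, deviations of the 2 genes from their group means had a Pearson r of -0.55, given as a description over libraries that share replicate numbers. With the replicate number in the edgeR model as a block, the OVCH2 log2 fold change was -3.46 ± 0.49 in culture and -3.47 ± 0.49 with EVs. ADAM7, a membrane protein of the epididymis that is passed to sperm, fell by 4.84 ± 0.50 on the log2 scale in culture (edgeR adjusted p = 1.53e-06), with means of 2972 ± 754 CPM (SD, n = 5) in fresh tissue and 104 ± 43.8 in culture. Principal cell markers fell in the same libraries, with a median log2 fold change of -2.97, and their part in the fall of OVCH2 was not tested.

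**Figure D2:**
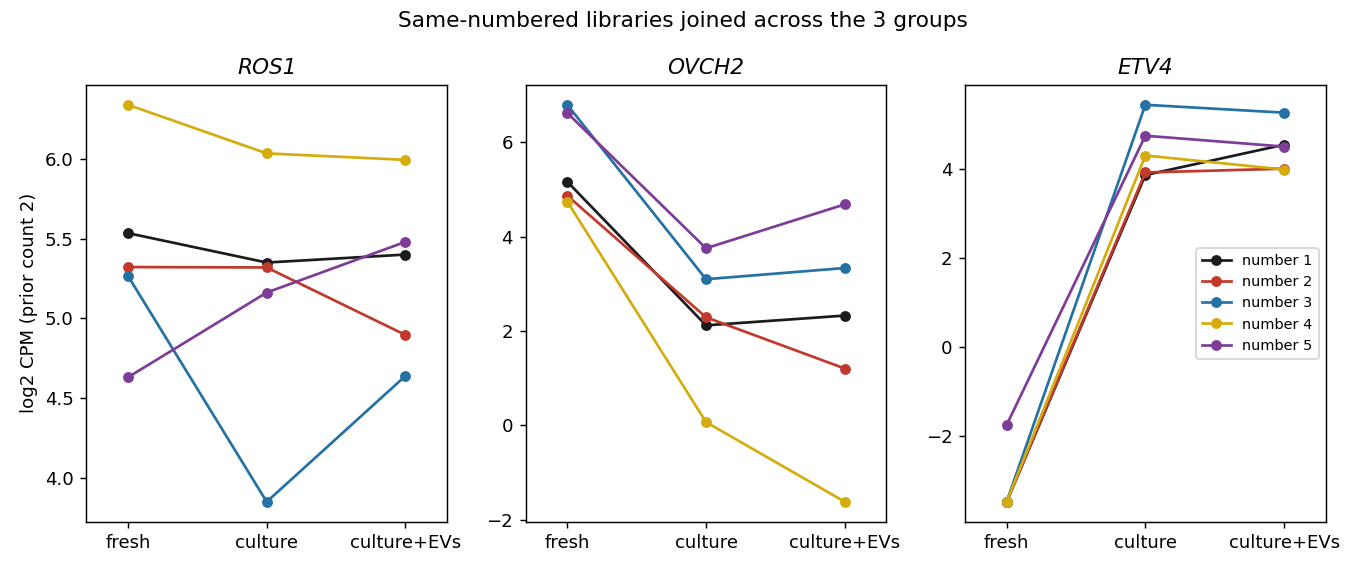
Level of ROS1, OVCH2 and ETV4 in log2 CPM (prior count 2) in the 3 groups, with a line joining the libraries that share a replicate number. From fresh tissue to either culture OVCH2 fell in every replicate, and ETV4 rose in every replicate, from 0 counts in 4 of the 5 fresh libraries. Between the 2 cultures neither had a common direction, with OVCH2 higher with EVs in 3 of 5 replicates and ETV4 in 2 of 5. OVCH2 kept replicate 4 lowest, and ROS1 kept replicate 4 highest without a common direction.

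ETV4 had the largest difference of the 10 genes. It had 0 counts in fresh 1 to 4, which allows up to 0.120 to 0.173 CPM per library at 3 counts, and 4 counts (0.206 CPM) in fresh 5. Culture libraries 1 to 5 had 14.5, 15.1, 43.7, 19.8 and 26.9 CPM, and libraries with EVs 23.4, 16.1, 38.6, 15.9 and 22.7 CPM. The groups were far apart, and replicate 3 was the highest in both cultures. The ratio of scaled counts was 617 in culture (2547 counts against 4; 95% exact binomial interval 241 to 2268) and 628 with EVs (2787 counts against 4; 245 to 2305). These intervals too cover counting error only, and all 4 fresh counts came from 1 library. The edgeR log2 fold change, which depends on the small value added to counts near 0, was 9.11 ± 0.70 (SE; adjusted p = 7.59e-08) and 9.07 ± 0.70 (adjusted p = 7.41e-08). Without fresh 5 all remaining fresh libraries had 0 counts, and edgeR gave 12.09 and 12.05, which are no bounds on the change.

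ETV5 and ETV1, the other PEA3 factors, were already expressed in fresh tissue and rose less. ETV5 had 10.8, 7.67, 13.9, 6.70 and 11.8 CPM in fresh libraries, 16.0, 21.4, 21.4, 21.6 and 29.8 CPM in culture and 25.5, 18.4, 33.8, 17.5 and 37.8 CPM with EVs. No cultured library reached down to the fresh range, and the rise was 2.17-fold in culture (log2 1.11 ± 0.26, SE; edgeR adjusted p = 0.00193) and 2.61-fold with EVs (1.38 ± 0.26; adjusted p = 0.000373). ETV1 had 2.19, 1.77, 4.05, 1.21 and 1.96 CPM in fresh libraries, 9.81, 7.22, 4.00, 9.40 and 12.4 CPM in culture and 11.9, 5.86, 13.6, 6.73 and 14.9 CPM with EVs. The fresh and culture ranges of ETV1 met in replicate 3, where fresh 3 was the highest fresh library and culture 3 the lowest culture library. ETV1 rose 3.81-fold in culture (log2 1.93 ± 0.38; edgeR adjusted p = 0.000518), higher in 4 of 5 same-numbered pairs, and 4.72-fold with EVs (2.24 ± 0.38; adjusted p = 0.000161), higher in 5 of 5. Culture 3 was therefore the lowest of its group in ETV1 and the highest in ETV4.

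The feedback inhibitors rose in every cultured library. DUSP6, the phosphatase that removes activating phosphates from ERK in the cytoplasm, had 22.4, 31.5, 21.7, 22.0 and 21.4 CPM in fresh libraries. It had 63.7, 48.3, 56.7, 91.0 and 95.8 CPM in culture and 92.9, 49.0, 91.7, 95.0 and 93.3 CPM with EVs. Replicate 2 was the highest in fresh tissue and the lowest in both cultures, with a 1.53-fold rise in culture where the other replicates rose 2.61- to 4.48-fold. As groups, DUSP6 rose 2.98-fold in culture (log2 1.58 ± 0.22, SE; edgeR adjusted p = 2.89e-05) and 3.54-fold with EVs (1.82 ± 0.22; adjusted p = 7.74e-06).

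SPRY4, a Sprouty protein that blocks signalling between receptor and RAF, had 4.30, 3.37, 3.61, 3.12 and 4.59 CPM in fresh libraries, 23.6, 22.0, 17.2, 14.5 and 31.4 CPM in culture and 22.9, 31.0, 25.0, 14.95 and 35.5 CPM with EVs. Every cultured library was above the highest fresh one, and replicate 5 was highest and replicate 4 lowest in all 3 groups. SPRY4 rose 5.72-fold in culture (log2 2.52 ± 0.25; edgeR adjusted p = 1.17e-06) and 6.81-fold with EVs (2.77 ± 0.26; adjusted p = 4.76e-07). SPRY2, its paralogue, rose least of the called genes, from 13.6, 13.4, 12.6, 11.1 and 11.6 CPM in fresh libraries to 18.0, 19.6, 16.6, 16.5 and 28.0 CPM in culture and 19.9, 21.2, 22.3, 15.9 and 23.2 CPM with EVs. The SPRY2 ranges did not meet, and the rise was 1.58-fold in culture (0.66 ± 0.16; edgeR adjusted p = 0.00317) and 1.64-fold with EVs (0.72 ± 0.16; adjusted p = 0.00185). Markers of endothelium, a tissue in which Sprouty genes are also active, were higher in 5 of 10 in both cultures, none was lower, and none was at 0 counts in any group. Their summed level was 269 to 364 CPM in fresh libraries, 471 to 635 in cultured ones and 380 to 829 with EVs, and their part in the rise of SPRY4 and SPRY2 was not tested.

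PTPN6, the phosphatase known as SHP-1 that dephosphorylates ROS1 and other receptors, fell in every replicate. Its level was 28.8, 31.2, 30.5, 33.3 and 36.2 CPM in fresh libraries, 14.2, 10.9, 17.2, 16.6 and 13.6 CPM in culture and 16.5, 11.0, 14.2, 17.9 and 12.8 CPM with EVs. All cultured libraries were below all fresh ones, with falls of 1.77- to 2.87-fold between same-numbered libraries of fresh tissue and culture. The log2 fold change was -1.14 ± 0.16 in both comparisons, or 2.21-fold lower (SE, n = 5 per group; edgeR adjusted p = 2.88e-05 in culture and 2.93e-05 with EVs). PTPN11, the closely related phosphatase SHP-2 that promotes ERK signalling, went the other way. It ranged over 64.5 to 76.5 CPM in fresh libraries, 146 to 203 in cultured ones and 163 to 199 with EVs, a rise of 2.44-fold in culture (log2 1.29 ± 0.11; edgeR adjusted p = 1.79e-07) and 2.64-fold with EVs (1.40 ± 0.11; adjusted p = 8.07e-08).

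PTPN6 is also abundant in leukocytes. Of 21 leukocyte markers tested, 3 were higher, 5 lower and 13 not called in culture, with 3 higher, 7 lower and 11 not called with EVs, and none of the list was at 0 counts in any group. Of all tested genes, 28.7% were called higher and 25.6% lower in culture, and 27.4% and 25.5% with EVs. The median log2 fold change of the leukocyte markers was -0.12 in culture and -0.75 with EVs. The summed level of the leukocyte markers was 712 to 1335 CPM in fresh libraries, 480 to 645 in cultured ones and 369 to 595 with EVs. PTPRC, the pan-leukocyte phosphatase CD45, had 6.52 to 16.8 CPM in fresh libraries, 2.08 to 7.22 in cultured ones and 1.53 to 4.52 with EVs, with a log2 fold change of -1.18 ± 0.40 in culture (edgeR adjusted p = 0.0198) and -1.59 ± 0.40 with EVs (adjusted p = 0.00356). The call in culture rests on fresh 5, the highest library at 16.8 CPM, without which PTPRC was at -0.87 (adjusted p = 0.0732). The part of leukocyte RNA in the fall of PTPN6 was not tested.

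**Figure D3:**
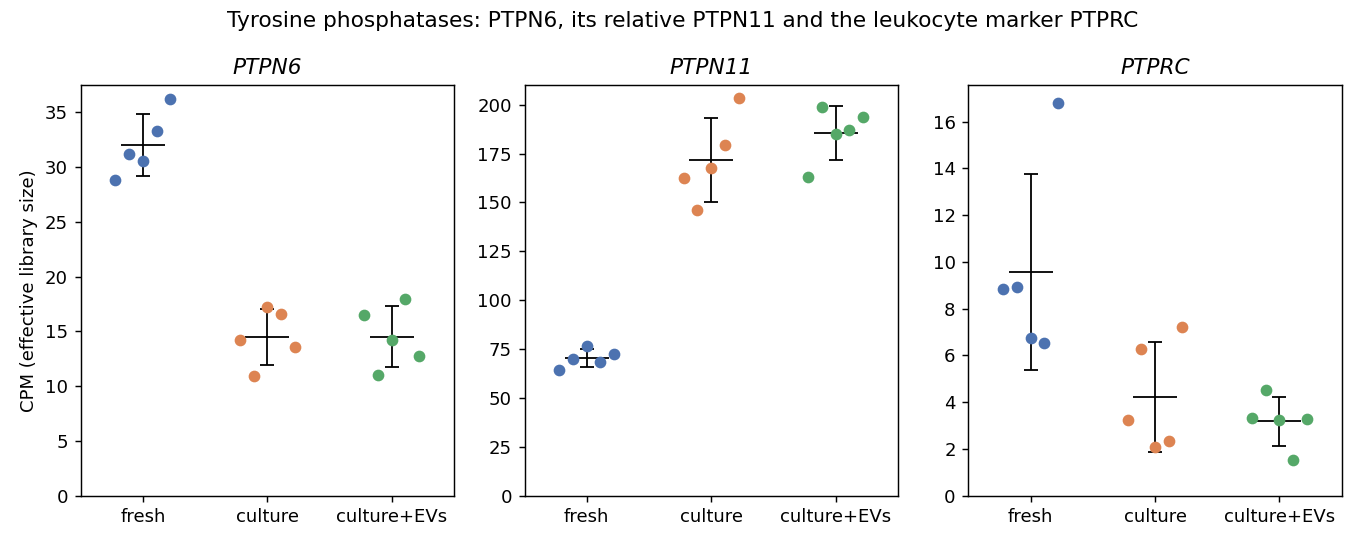
Level in CPM of PTPN6, PTPN11 and PTPRC in each library of the 3 groups, with the mean and SD of 5 libraries and axes starting at 0. PTPN6 fell and PTPN11 rose with no overlap between fresh and cultured libraries, and PTPRC fell with overlap between fresh tissue and culture.

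The comparison of culture with and without caput EVs asks what the vesicles add, and none of the 10 genes passed the test. In culture with EVs against culture, 0 of the 10 were called by edgeR and 0 had an unadjusted p under 0.05. Groups did not overlap for 0 of the 10, beside 0.0832% of all tested genes. Over all tested genes 0% were called, with 183 of 18038 at an unadjusted p under 0.05 in edgeR, and DESeq2 and limma-voom also called 0. The median log2 fold change of the 10 genes was 0.16. All adjusted p-values were 1, and the 95% intervals set how large a difference remained possible. The narrowest were those of PTPN6 (0.00 ± 0.16, SE; -0.35 to 0.35) and SPRY2 (0.05 ± 0.16; -0.30 to 0.41). DUSP6 was at 0.25 ± 0.22 (-0.23 to 0.72), SPRY4 at 0.25 ± 0.24 (-0.27 to 0.77) and ETV5 at 0.27 ± 0.25 (-0.28 to 0.82). ETV1 was at 0.31 ± 0.36 (-0.48 to 1.09), ROS1 at 0.06 ± 0.37 (-0.74 to 0.86) and ETV4 at -0.04 ± 0.41 (-0.93 to 0.85). In this fit without replicate numbers, the intervals of OVCH2 (0.43 ± 0.84; -1.40 to 2.25) and NELL2 (-0.15 ± 0.70; -1.67 to 1.36) were wide enough to hold a change of over 2-fold either way. Between same-numbered libraries, DUSP6 and SPRY4 were higher with EVs in 4 of 5 replicates, ETV4 in 2, NELL2 in 1 and the other 6 genes in 3. With the replicate number as a block, edgeR gave SPRY4 0.25 ± 0.15 (adjusted p = 0.967) and again called 0 genes. In that fit OVCH2 was at -0.0062 ± 0.43, a smaller SE than without the block, and NELL2 at -0.05 ± 0.69.

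**Figure D4:**
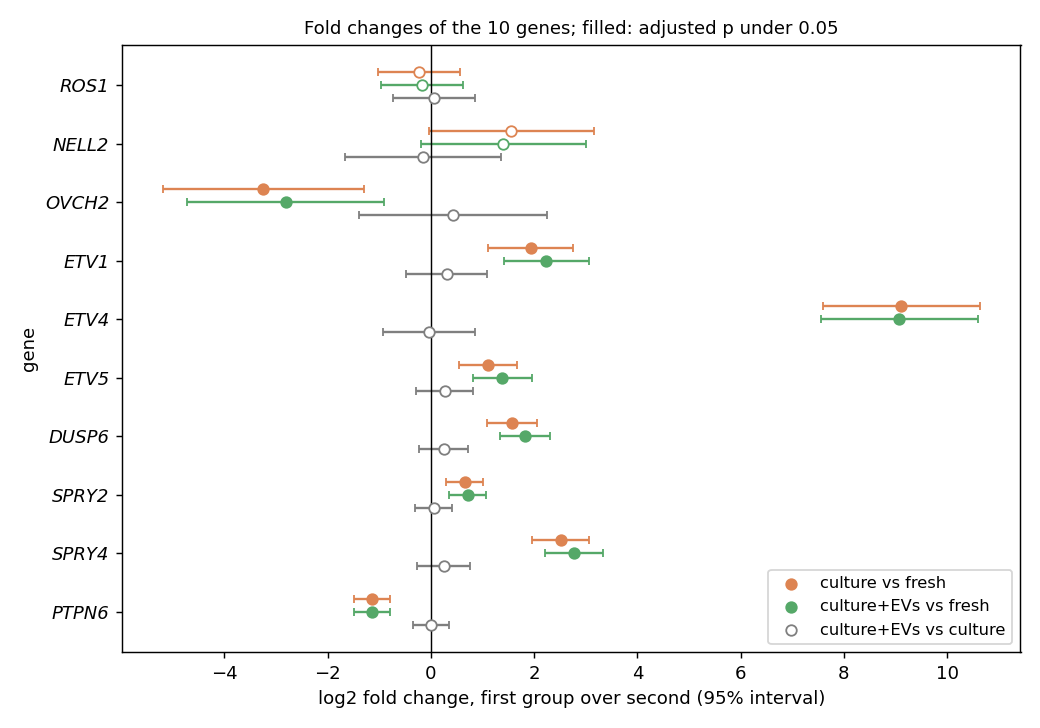
Log2 fold change of each gene from edgeR with its 95% interval, for culture and culture with EVs against fresh tissue and for culture with EVs against culture; filled points have an adjusted p under 0.05. In both comparisons with fresh tissue 6 genes lie above 0 and OVCH2 and PTPN6 below it, and all 10 intervals for EVs against culture cross 0.

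Other genes of the pathway were counted in lists by role, against the shares of all genes called that are given above. Genes that fell are named for lists with 5 or fewer of them, after their values were seen. Of 26 receptor tyrosine kinases, 14 were higher, 5 lower and 7 not called in culture, with a median log2 fold change of 1.36, and 13, 5 and 8 with EVs. By smallest adjusted p, MST1R, the receptor of macrophage-stimulating protein (4.91 ± 0.51, SE), AXL (2.29 ± 0.25), the ephrin receptor EPHA4 (2.07 ± 0.23) and the collagen receptor DDR1 (1.43 ± 0.16) rose in culture. ALK (-2.93), INSRR, NTRK2, FGFRL1 and the insulin receptor INSR (-0.75) fell. Of 25 receptor ligands, 16 were higher, 5 lower and 4 not called in culture (median 1.36), and 15, 6 and 4 with EVs. Ligands of the epidermal growth factor receptor family moved in both directions. TGFA rose by 3.72 ± 0.41, AREG by 5.14 ± 0.68 and NRG1 by 2.60 ± 0.29, and EGF itself fell by 3.45 ± 0.44 (edgeR adjusted p of 1.57e-05 or less). The rise of AREG was 6.31 in limma-voom. NRG4 (-2.56), IGF2, FGF9 and MST1 (-0.63; edgeR adjusted p = 0.0393) were called lower as well. NRG4 was at -3.51 without culture 4. The MST1 call was lost with no filter (adjusted p = 0.0545), in the fit of 2 groups (0.0895) and without any 1 of fresh 3 or 5 or culture 1, 2, 4 or 5 (0.0753 to 0.107).

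Of 31 genes of the ERK cascade itself, 13 were higher, 5 lower and 13 not called in culture (median 0.27), and 12, 4 and 15 with EVs. Without culture 3 the counts in culture were 15 higher and 6 lower. The adaptor phosphatase PTPN11, the small GTPase RRAS2 (3.54 ± 0.30, SE), the ERK-activated kinase RPS6KA1 (2.15 ± 0.27) and SRC (1.70 ± 0.21) had the smallest adjusted p. MRAS (-0.95), SOS2 (-0.68), ARAF, GAB2 and the adaptor GRB2 (-0.37) were called lower. In the fit of 2 groups SOS2 (edgeR adjusted p = 0.0518) and GRB2 (0.0703) lost their calls. So did SOS2 without fresh 4 or culture 2 (0.0531 to 0.0561), and GRB2 without fresh 5 or culture 1, 4 or 5 (0.0521 to 0.0598). MAPK3, which encodes ERK1, rose by 1.34 ± 0.18 (edgeR adjusted p = 1.48e-05).

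Of 27 other feedback inhibitors, 14 were higher, 3 lower and 10 not called in culture (median 0.91), and 18, 3 and 6 with EVs. Without culture 3 the counts in culture were 19 higher and 3 lower. DUSP7, a cytoplasmic ERK phosphatase like DUSP6, rose by 3.70 ± 0.23 in culture (SE; edgeR adjusted p = 1.11e-08), and DUSP4, a nuclear one, by 4.84 ± 0.48 (adjusted p = 8.75e-07), with means of 3.06 ± 1.74 CPM (SD, n = 5) in fresh tissue and 87.6 ± 50.9 in culture. The Sprouty-related inhibitors SPRED3 (2.49 ± 0.24, SE) and SPRED2 (1.45 ± 0.16) also rose, and the stress-induced phosphatase DUSP1 (-1.42), DUSP9 (-1.03) and the RAF inhibitor PEBP1 (-0.95) fell. SPRY1, the paralogue of SPRY2 and SPRY4, was not called in culture (0.35 ± 0.19; edgeR adjusted p = 0.137) and was called with EVs (0.57 ± 0.19; adjusted p = 0.0212). Both calls rest on single libraries, and the one in culture also on the method. In culture SPRY1 was at 0.49 without culture 3 (edgeR adjusted p = 0.0130) and without fresh 4 (adjusted p = 0.0413). On all libraries limma-voom gave 0.47 in culture (adjusted p = 0.0122). With EVs its edgeR adjusted p was 0.0504 to 0.0567 without fresh 1, 2 or 5 or culture with EVs 3.

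Of 21 transcriptional targets of ERK, 16 were higher, 2 lower and 3 not called in both comparisons (median 1.45 and 1.57). EPHA2, EPHA4, HBEGF, DUSP4, DUSP5, SPRED1 and SPRED2 also belong to lists above, so these counts partly repeat earlier ones. PLAUR, the urokinase receptor, rose by 4.59 ± 0.50 (SE; edgeR adjusted p = 2.25e-06). The 2 lower genes were the immediate early genes EGR1 (-3.55 ± 0.48, and -2.94 in limma-voom) and FOS (-2.90 ± 0.39). Of 20 other ETS factors, 11 were higher, 2 lower and 7 not called in culture (median 0.88), and 10, 2 and 8 with EVs. ETV7 (3.35 ± 0.32), ETS1 (2.54 ± 0.30), ETS2 (2.08 ± 0.26) and ELF4 (2.02 ± 0.20) had the smallest adjusted p, and ELF2 (-0.74) and ELK1 (-0.41) fell. Of 24 other protein tyrosine phosphatases, 13 were higher, 3 lower and 8 not called in culture (median 0.48), and 14, 3 and 7 with EVs. The 3 lower were PTPN7 (-1.19 ± 0.47; edgeR adjusted p = 0.0424) and PTPRC, both phosphatases of leukocytes, and PTPN3 (-0.82 ± 0.20). The PTPN7 call was lost with no filter (adjusted p = 0.0648), in the fit of 2 groups (0.0614) and without any 1 of fresh 2, 4 or 5 or culture 1, 3 or 4 (0.0602 to 0.0988), and that of PTPRC without fresh 5. PTPN12 (2.71 ± 0.32), PTPRK (1.40 ± 0.20) and PTPN1 (0.88 ± 0.10) rose in culture. PTPN11 is in this list as well as in that of the cascade.

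Of 15 listed partners of the lumicrine pathway, 6 were tested, and 3 were higher, 1 lower and 2 not called in both comparisons. The lower gene was ADAM7. MFGE8, a secreted protein that coats sperm, rose by 1.76 ± 0.25 (SE; edgeR adjusted p = 3.23e-05), and GGT1, a glutathione-degrading enzyme of the duct surface, by 2.05 ± 0.35 (adjusted p = 0.000155). SRD5A2, which makes dihydrotestosterone, rose by 1.89 ± 0.71 (adjusted p = 0.0335) with overlapping groups, and its call was lost on leaving out any of 6 single libraries, with adjusted p up to 0.111 without culture 1. Without fresh 3, SRD5A2 was at 2.91. NICOL1, a partner of NELL2, was not matched by symbol and is not analysed here. No gene of these 8 lists was called in culture with EVs against culture by edgeR.

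**Figure D5:**
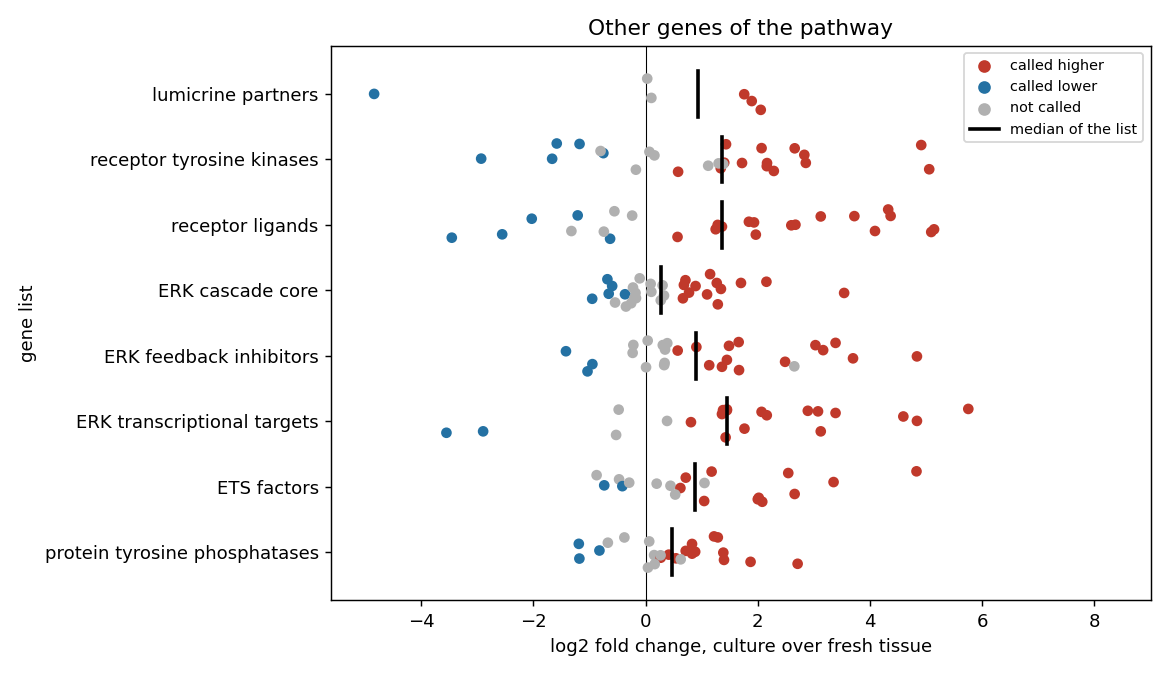
Log2 fold change in culture against fresh tissue of each tested gene of the 8 pathway lists, by edgeR, coloured by call, with a bar at each list's median. Most receptor, ligand, feedback and target genes lie above 0 with a few called lower in each list, and the cascade's own genes lie nearest to 0, with a median of 0.27.

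The 10 genes did not move as 1 block between the libraries of a group. Deviations from group means over the 15 libraries had a Pearson r of 0.80 between SPRY2 and SPRY4, 0.77 between OVCH2 and ETV5 and 0.75 between OVCH2 and SPRY4. The r was -0.70 between ROS1 and ETV4, -0.64 between SPRY4 and PTPN6 and -0.18 between DUSP6 and SPRY4. These values describe libraries that share replicate numbers and carry no test. Among 12365 genes ranked by the same measure, those most like ROS1 were DLG2 (r = 0.95), TESK1 (0.91) and ID2 (0.90). Most like OVCH2 were LRP2BP (0.90), ARMC3 (0.87) and RIPOR2 (0.85), and LRP2BP was also among the 3 most like ETV5 (0.82). Most like SPRY4 were ICAM2 (0.95), MEF2C (0.93) and RAMP2 (0.93). Most like PTPN6 were AP1G2 (0.95), RAB25 (0.92) and ERBB2 (0.92). Likeness between replicates did not mean a like difference between groups: in culture DLG2 fell by 1.93 ± 0.46 on the log2 scale (SE; edgeR adjusted p = 0.00254) where ROS1 was not called, and RAB25 rose by 1.29 ± 0.21 (adjusted p = 0.000112) where PTPN6 fell.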

How the data were processed

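RNA-seq libraries were made from total RNA with the TruSeq Stranded mRNA kit, per the labels' protocols. The authors deposited raw counts of 38995 genes in 15 libraries. Tools named in the submitters' processing notes are StringTie 2.1.3b, Bowtie2 2.3.4.1, HISAT2 2.1.0 and Trimmomatic 0.38. The sources used here do not give the counting program, its strand setting, the genome build or the annotation, so reads of overlapping genes on opposite strands and of near-identical copies may not have been told apart. Names came from RefSeq's table for assembly F.catus_Fca126_mat1.0, in which all 38995 identifiers were found. It served for names only, so no gene position and no sequence is given. Levels are not compared between genes, because no transcript lengths were used.

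Groups came from the sample titles. Genes were filtered with edgeR's filterByExpr (minimum count 10, minimum total 15), scaled by TMM and tested with glmQLFit and glmQLFTest of edgeR 4.0.16 (R 4.3.3; 2-sided) on all 15 libraries, with group as the only term and 12 residual degrees of freedom. P-values were adjusted over all 18038 tested genes. Log2 levels use a prior count of 2. The steps were tested on simulated data. Alternatives were DESeq2 1.42.0, limma-voom (limma 3.58.1) with sample weights, upper-quartile and relative log expression scaling, no filter on low counts, a filter at 1 CPM in 5 libraries, 2 groups only, the replicate number as a block and leaving out each library.

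The members and the 17 gene lists were chosen with earlier results of these data known. All 10 members are named. Of each pathway list, up to 4 genes with the smallest adjusted p in culture against fresh tissue and a mean log2 CPM of 1 or more are named, and MAPK3, SPRY1 and DUSP4 whatever their values. Another gene that the rule names is not reported here. For each member the 3 genes with the most similar deviations from group means were candidates to be named. Of 294 list symbols, 7 were not matched. Replicate numbers come from the titles. Deviations from group means correlated between same-numbered libraries at 0.181 to 0.602 for the 2 cultures and 0.242 to 0.362 for culture with EVs and fresh tissue, so the numbers were taken to pair the libraries in these comparisons.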

Additional observations from a re-analysis of the deposited data

Results flagged for a closer look

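Each of the 10 genes was checked in each group of 5 libraries for a library whose gap to its nearest neighbour exceeded Dixon's limit (0.71 of the group's range), 30 checks in all. In 4 of them a library stood apart, and chance alone gives about 1 in 20, a rate that does not apply to ETV4 in fresh tissue. NELL2 in culture 5 was the lowest of its group at -0.83 log2 CPM (0.474 CPM, the others 1.09 to 1.42). ETV4 in fresh 5 was the highest of its group at -1.76 log2 CPM (0.206 CPM, the others 0), where the tie of the other 4 at 0 counts makes its gap the whole range for any count. DUSP6 stood apart in replicate 2 of 2 groups. It was the highest in fresh 2 at 4.98 log2 CPM (31.5 CPM, the others 21.4 to 22.4) and the lowest in culture with EVs 2 at 5.62 log2 CPM (49.0 CPM, the others 91.7 to 95.0).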

How the results depend on the processing

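All 8 calls of each comparison with fresh tissue kept their direction and their call under every alternative run, the 10 left-out libraries included, and only NELL2 changed its call. DESeq2 and limma-voom thus gave 7 higher genes in culture and limma-voom 7 with EVs. Over all genes, 8671 to 11036 were called in culture, 8873 to 11789 with EVs and 0 in culture with EVs against culture. Upper-quartile scaling moved the median log2 fold change of all genes from 0.01 to -0.09 with EVs, and the called genes were 47.4% higher in culture against 52.9% with TMM.

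Sign changes occurred only in differences that no setting called. ROS1 was at 0.0748 in culture with limma-voom, and leaving out 1 library gave -0.50 to 0.0751 in culture, -0.40 to 0.14 with EVs against fresh tissue and -0.16 to 0.32 with EVs against culture, where limma-voom gave -0.27. Against culture, leaving out 1 library gave -0.56 to 0.87 for OVCH2, -0.32 to 0.29 for ETV4, -0.0183 to 0.20 for SPRY2 and -0.10 to 0.0715 for PTPN6. ETV4 was at 0.49 with limma-voom. PTPN6 was at -0.019 with DESeq2, -0.021 with relative log expression, -0.0069 with upper-quartile scaling, -0.0072 with the 1 CPM filter and -0.0070 with 2 groups only. With the replicate number as a block, the paired values with EVs against culture were -0.0062 for OVCH2, 0.010 for ETV4 and -3.59e-05 for PTPN6. The block changed no member's call, and counts over all genes were 10438 in culture, 10283 with EVs and 0 against culture (206 at an unadjusted p under 0.05). Culture and fresh libraries of 1 number correlated at 0.033 to 0.344, best with their own number in 4 of 5. Culture 3 was the low one, and the other 4 were at 0.198 or more, so this check does not settle the pairing of culture with fresh tissue. Depth limits NELL2 and fresh ETV4, with at most 31 and 4 counts per library. It also limits OVCH2 in replicate 4, with 24 counts in culture and 6 with EVs.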
